A study of Mus musculus with 12 samples.

Results

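The genes described here govern how the heart takes triglyceride from blood lipoproteins and how its muscle cells store and mobilise it. They are Angptl4, an inhibitor of lipoprotein lipase, the lipase gene Lpl itself, its capillary carrier Gpihbp1, the fatty acid transporter Cd36, the lipid droplet coat genes Plin2, Plin4 and Plin5, the lipolysis enzymes Pnpla2 and Lipe, and the lipolysis inhibitor G0s2. These 10 members were picked by gene symbol among the 17397 genes of the count table, and all 10 were abundant enough to be tested. Angptl4 and Plin2 were selected on earlier results from the same libraries, in which both stood out in the untrained tumour-bearing group. Their values are therefore given as a description, without p-values, and only the other 8 members are read as tests.

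Lipoprotein lipase is made mostly by cardiac muscle cells and is carried by GPIHBP1 to the capillary surface, where it releases fatty acids from triglyceride-rich lipoproteins. ANGPTL4 inactivates the enzyme, and CD36 helps the released fatty acids into the cell. Fatty acids that are not burned are held as triglyceride in droplets coated by perilipins, from which adipose triglyceride lipase, the product of Pnpla2, and hormone-sensitive lipase, the product of Lipe, release them again. Many of these genes are known targets of the fatty acid sensing PPAR receptors.

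RNA was sequenced from whole hearts of wild-type (WT) male C57BL/6J mice aged 8 weeks, in 4 groups of 3 libraries. Control mice stayed in their cages untrained and carry the treatment label saline. Trained mice ran on a treadmill 5 days a week for 4 weeks, first for 1 week of adaptation at speeds of up to 15 m/min. A later session had a warm-up (6 m/min, for 5 min) and a main run (12 m/min, for 35 min). Tumour mice were untrained and received 100000 B16F10 cells, a mouse melanoma line, into the tail vein from week 2 in order to bring about cachexia. Tumour trained mice had both the training and the B16F10 cells. Whether trained mice without tumour cells also received saline is not stated. No label states that the 3 libraries of a group are different mice. The p-values therefore describe the spread among the libraries at hand, which may be technical. The groups compare training and tumour, alone and together, on the heart.

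Library totals ranged from 8843909 to 13344847 estimated counts. Expression is quoted in CPM, that is counts scaled to library size, and a floor of 3 counts was worth 0.225 to 0.339 CPM. The libraries carried heart transcripts: cardiac Myh6 reached 37543 CPM and the liver gene Alb at most 3.93 CPM. In 2 tumour libraries melanocyte genes were abundant. The summed level of 6 melanocyte markers was 8974, 4629 and 17.9 CPM in tumour libraries 1, 2 and 3, against 5.49 to 10.8 CPM in the other 9 libraries. The summed level of 8 cardiomyocyte markers was 17074, 47849 and 90486 CPM in tumour libraries 1 to 3, against 92337 to 99852 CPM in control libraries. The cardiomyocyte share was thus lower in tumour 1 and 2 than in tumour 3, and tumour results below are given with and without those libraries. Trained 2 also stood apart from the other trained libraries, with a chi-square per gene of 29.0 and 31.2 against them, compared with 4.20 between those 2. In bulk RNA, fewer cells of a type and less RNA per cell cannot be told apart.

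Promoter sequences were at hand for 7 of the 10 members. The windows below belong to 3 droplet coat genes and 1 lipase gene, all with their highest level in tumour 3. In tumour 1 the genes differed: Plin2 was at 1.86 times the control mean, and Plin4, Plin5 and Pnpla2 at 0.58, 0.40 and 0.52. Cd36 and Lipe, also highest in tumour 3, had promoters at hand but are not printed. The printed windows are shown so that they can be read against each other. Each runs from 250 bases before to 30 bases after a RefSeq start on GRCm38.p6, 5′ to 3′ on the gene's strand. Plin2 lies at chr4:86670030-86670309 (minus strand), Plin4 at chr17:56109753-56110032 (minus), Plin5 at chr17:56117519-56117798 (minus) and Pnpla2 at chr7:141454938-141455217 (plus). Capitals mark AGGTCA, the half-site of many nuclear receptors, or its reverse complement TGACCT, and the E-box CACGTG.
Plin2: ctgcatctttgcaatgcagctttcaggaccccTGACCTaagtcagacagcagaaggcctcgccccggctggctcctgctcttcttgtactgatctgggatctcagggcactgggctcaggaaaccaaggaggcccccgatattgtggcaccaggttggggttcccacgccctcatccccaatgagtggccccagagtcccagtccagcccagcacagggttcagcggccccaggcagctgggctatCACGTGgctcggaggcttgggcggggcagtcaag
Plin4: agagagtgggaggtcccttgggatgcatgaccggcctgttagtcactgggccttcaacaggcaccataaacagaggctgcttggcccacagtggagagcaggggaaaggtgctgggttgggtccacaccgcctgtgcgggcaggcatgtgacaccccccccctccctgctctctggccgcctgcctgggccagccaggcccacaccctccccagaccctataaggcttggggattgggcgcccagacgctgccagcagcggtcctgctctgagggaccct
Plin5: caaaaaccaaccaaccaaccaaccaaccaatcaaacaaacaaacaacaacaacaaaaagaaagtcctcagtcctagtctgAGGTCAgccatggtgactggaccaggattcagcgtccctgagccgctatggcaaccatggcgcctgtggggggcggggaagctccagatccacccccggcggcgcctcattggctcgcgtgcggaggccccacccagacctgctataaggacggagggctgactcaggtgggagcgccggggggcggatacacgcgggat
Pnpla2: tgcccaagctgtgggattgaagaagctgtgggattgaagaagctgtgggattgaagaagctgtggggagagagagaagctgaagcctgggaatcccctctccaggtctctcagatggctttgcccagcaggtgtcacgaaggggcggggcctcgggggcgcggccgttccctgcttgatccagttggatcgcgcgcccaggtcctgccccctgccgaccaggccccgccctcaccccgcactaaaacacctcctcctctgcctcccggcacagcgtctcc
Plin4 and Plin5 lie in a row on chromosome 17, on the same strand. In windows of 250 bases before to 50 bases after a start, searched on both strands, AGGTCA was present at Cd36, Plin2 and Plin5 and in 16.3% of 32851 mouse promoters. The E-box was present at Lipe and Plin2 and in 7.15% of promoters, and TGTTTAC, a FoxO-type site, at Lipe and in 3.65%. AGGTCA repeated with 1 base between, the arrangement bound by PPAR with its partner RXR, was in 0.0396% of promoters and in none of the 9 member windows. A repeat this rare would hardly be met in 9 windows, so its absence does not show that the members lack PPAR sites. A match is a description of letters and not a measured binding site.

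Per kilobase of exon, control hearts expressed Lpl and Cd36 highest, at 424 ± 74.8 and 404 ± 66.1 CPM per kb (mean ± SD, n = 3). These 2 values did not differ beyond their spread. Pnpla2 followed at 199 ± 9.50 CPM per kb and Plin5 at 76.0 ± 9.98. G0s2 (53.7 ± 15.3) and Plin4 (51.3 ± 5.78) were alike within their spread, and Gpihbp1 came next at 37.8 ± 5.76 CPM per kb. Plin2 was at 17.3 ± 0.38, Lipe at 8.65 ± 1.45 and Angptl4 lowest of the 10 at 3.05 ± 1.05 CPM per kb. Control hearts thus carried much transcript for the lipase and little for its inhibitor. White adipocyte transcripts were near absent: 7 markers of that cell type summed to at most 3.35 CPM in any library, with Lep at 0 in 11 libraries and Plin1 at no more than 0.315 CPM.

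Angptl4, the secreted inhibitor of the lipase, had its lowest group means in hearts with neither or both of the interventions. Its level in control libraries 1 to 3 was 7.85, 15.0 and 9.57 CPM, scaled by the trimmed mean of M values (TMM). In tumour libraries 1 to 3 it was 38.6, 66.8 and 70.7 CPM, and all 3 lay above all control libraries. In trained libraries it was 50.4, 73.3 and 16.5 CPM, also all above control, although trained 3 exceeded the highest control by little and lay within the tumour trained range. In tumour trained libraries it was 19.3, 9.17 and 13.0 CPM, a range that overlapped that of control. The group means ± SD were 10.8 ± 3.73, 46.7 ± 28.6, 58.7 ± 17.5 and 13.8 ± 5.12 CPM in control, trained, tumour and tumour trained hearts (n = 3 each). The fitted log2 fold change of tumour against control was 2.44 ± 0.50 (SE), that of trained against control 2.11 ± 0.49 and that of tumour trained against tumour -2.08 ± 0.49. Angptl4 was as high in tumour 3, where melanocyte markers were near control level, as in tumour 2. With tumour 3 as the only tumour library the tumour against control value was 2.72 and the tumour trained against tumour value -2.37.

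**Figure D1:**
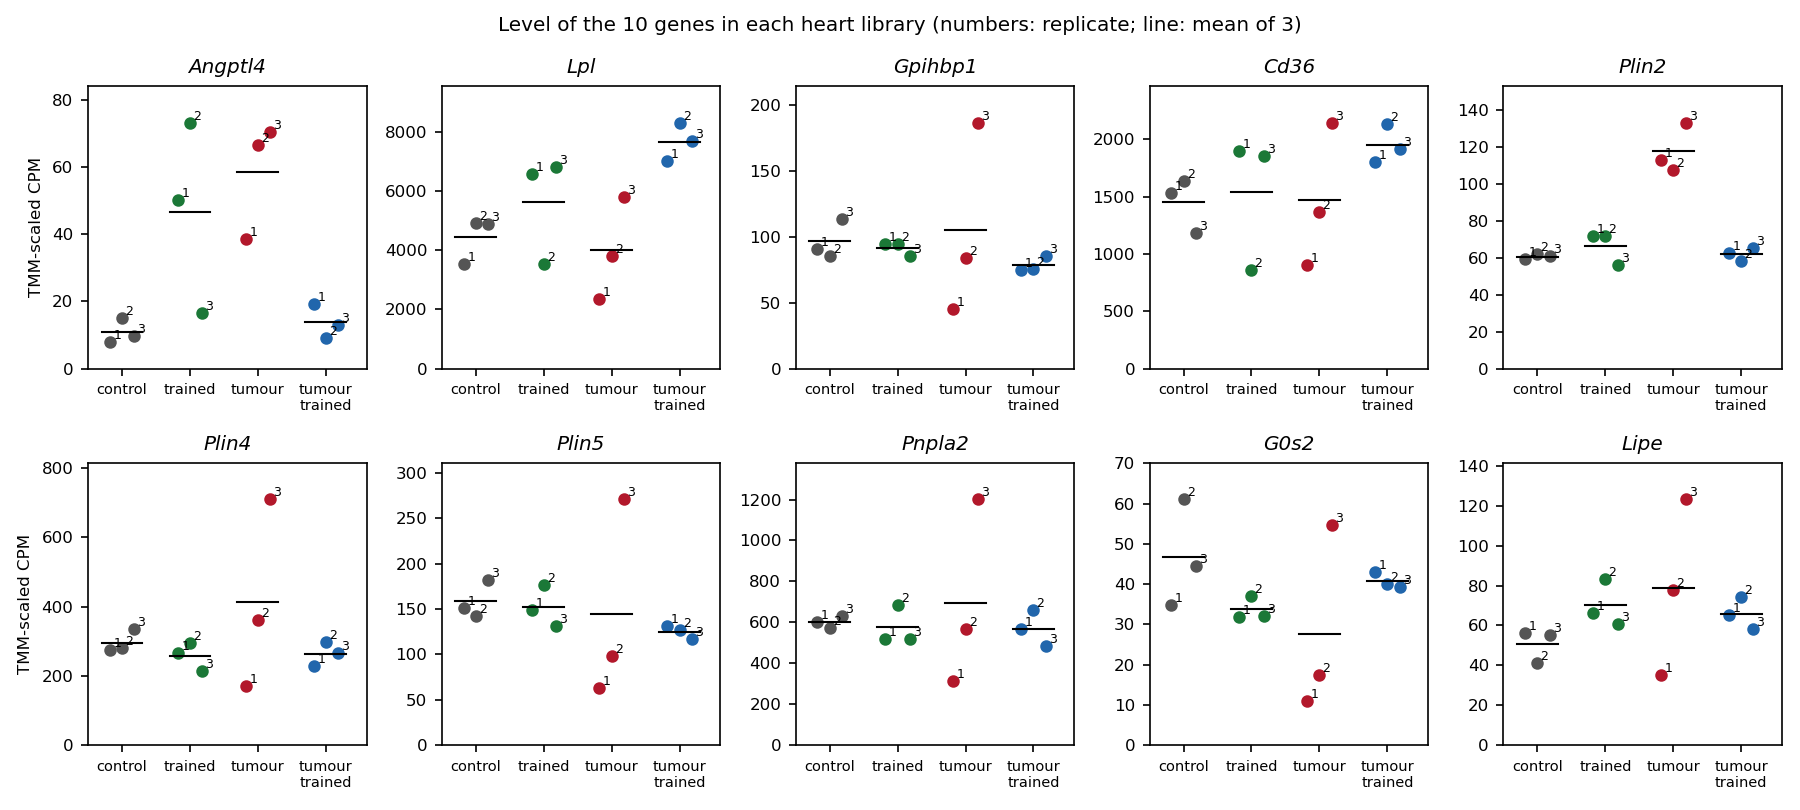
Level of each of the 10 genes in TMM-scaled CPM (y axis, from 0) in the 12 libraries, by group (x axis); each point is 1 library with its replicate number, and the line is the mean of 3. Angptl4 is high in all 3 tumour libraries and in trained 1 and 2 but not in tumour trained hearts, Plin2 is high in all 3 tumour libraries, and Plin4, Plin5, Pnpla2, Lipe and Gpihbp1 are highest in tumour 3.

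Lpl, the lipase gene, was highest in the tumour trained group. Its levels there were 7008, 8304 and 7688 CPM, above all 9 other libraries, a pattern shared by 1.43% of the genes tested. Control libraries were at 3540, 4903 and 4894 CPM and trained libraries at 6559, 3550 and 6806 CPM, so that trained 2 lay within the control range and trained 1 and 3 above it. Tumour libraries were at 2367, 3818 and 5804 CPM, rising in the order in which melanocyte transcripts were fewer. Tumour trained against tumour gave a log2 difference of 0.94 ± 0.37 (SE), which did not pass the threshold (edgeR adjusted p = 0.113), but did so with DESeq2 (0.94, adjusted p = 0.0351). It was 0.39 with tumour 3 alone (edgeR adjusted p = 0.572). Tumour trained against control gave 0.79 ± 0.37 (adjusted p = 0.766). Trained against control gave 0.34 ± 0.37 and tumour against control -0.15 ± 0.37 (adjusted p = 1 and 0.770).

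Gpihbp1, which anchors the lipase to capillary endothelium, was steady outside the tumour group. Control libraries were at 90.9, 85.4 and 113 CPM, trained libraries at 94.4, 94.7 and 85.2 CPM and tumour trained libraries at 74.9, 75.8 and 85.5 CPM. Tumour libraries spread from 45.5 to 83.7 and 186 CPM, and tumour 3 was the highest of the 12. Tumour against control was 0.12 ± 0.37 on the log2 scale with all 12 libraries (edgeR adjusted p = 0.818). Gpihbp1 was higher by 0.96 with tumour 3 alone (adjusted p = 0.0133) and lower by a log2 value of -0.62 without tumour 3 (adjusted p = 0.0358), so the remaining tumour library or libraries set the direction. The summed level of 8 endothelial markers was 409, 1038 and 1545 CPM in tumour libraries 1 to 3, against 1466 to 1636 CPM in control libraries. Relative to that sum, Gpihbp1 was 11.1%, 8.06% and 12.1% in the 3 tumour libraries, against 5.46% to 6.92% in control, 6.07% to 6.86% in trained and 5.89% to 6.70% in tumour trained libraries. On that scale all 3 tumour libraries lay above the other 9, as they did for 4.15% of all genes tested.

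Cd36, the fatty acid transporter of cardiac muscle and capillary cells, did not pass the threshold in any of the 6 comparisons. Control libraries were at 1534, 1634 and 1182 CPM, trained libraries at 1902, 861 and 1853 CPM, tumour libraries at 905, 1368 and 2143 CPM and tumour trained libraries at 1806, 2135 and 1913 CPM. Trained 2 was the lowest of the 12 and tumour 3 the highest, while the 3 tumour trained libraries all lay above control. Tumour trained against control gave a log2 difference of 0.43 ± 0.36 (SE; edgeR adjusted p = 0.872). Relative to the summed endothelial markers, Cd36 was 221%, 132% and 139% in the tumour libraries, in order. It was 72.3% to 105% in control, 59.3% to 138% in trained and 142% to 171% in tumour trained libraries. On that scale all 3 tumour libraries lay above control, but, unlike for Gpihbp1, not above all trained and tumour trained libraries.

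The levels of Lpl and Cd36 were set beside a property of the libraries, a shift by GC content, which they followed in some groups only. Both genes have transcripts of low GC content, 43.5% and 38.4%, which places them in the low-GC class of the genes tested (up to 43.9%). The median log2 shift of that class against control, minus that of an equally large high-GC class (from 55.6%), was -0.08 to 0.15 in control libraries, 0.48, -0.48 and 0.52 in trained libraries, 1.04, 0.19 and 0.08 in tumour libraries and 0.49, 0.61 and 0.59 in tumour trained libraries. Trained 2, low in both genes, had the negative value, and the libraries high in Lpl had positive ones, except that tumour 3 had almost no shift and tumour 1 had the largest shift with the lowest Lpl. After a correction for GC content, chosen after seeing the data, tumour trained against control was 0.52 for Lpl and -0.18 for Cd36, tumour trained against tumour was 0.83 and 0.00, and trained against control was 0.24 and -0.29. Among the tumour libraries the shift ran opposite to both genes. The part of GC content in the levels of Lpl and Cd36 was not tested.

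**Figure D2:**
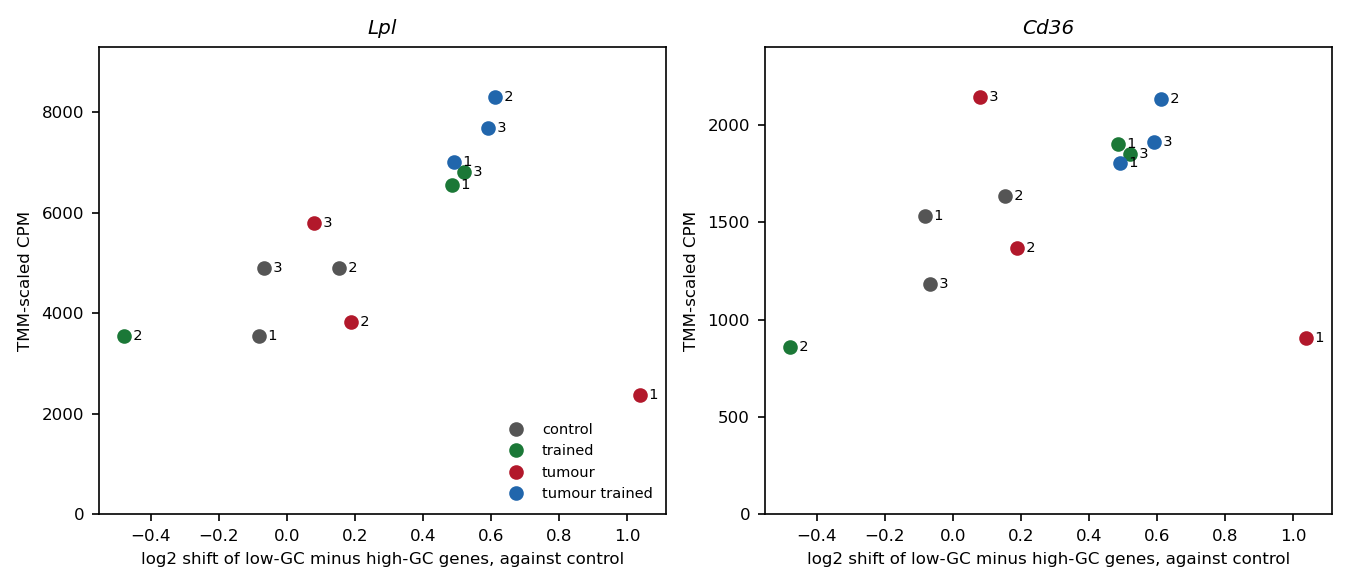
Level of Lpl (left) and Cd36 (right) in TMM-scaled CPM (y axis, from 0) against the log2 shift of low-GC minus high-GC genes relative to control (x axis), 1 point per library with its replicate number. Tumour trained libraries and trained 1 and 3 sit at shifts of 0.48 to 0.61 and at high levels, trained 2 at -0.48 and a low level, and tumour 1 apart at 1.04.

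Plin2, the perilipin found on droplets in most cell types, had tight control and tumour groups. Control libraries were at 59.3, 61.9 and 60.9 CPM and tumour libraries at 113, 108 and 133 CPM, with no overlap. Trained libraries were at 71.6, 71.7 and 56.2 CPM and tumour trained libraries at 62.5, 58.4 and 65.3 CPM, both around the control level. The group means ± SD were 60.7 ± 1.33 in control, 66.5 ± 8.94 in trained, 118 ± 13.4 in tumour and 62.1 ± 3.51 CPM in tumour trained hearts (n = 3 each). The log2 difference of tumour against control was 0.96 ± 0.14 (SE) and that of tumour trained against tumour -0.93 ± 0.14. With tumour 3 alone they were 1.14 and -1.12, and without tumour 3 they were 0.82 and -0.80. Plin2 was thus the member whose tumour value depended least on which tumour libraries were kept, but it had been chosen for standing out in that group. The summed level of 7 macrophage markers was 351, 606 and 316 CPM in tumour libraries 1 to 3, against 340 to 438 CPM in control. The part of melanoma, macrophage or other cells in the Plin2 level was not tested. The count table also held a row for Gm12551, a pseudogene that overlaps the Plin2 locus, with 1 count in all. The strand setting of the counting is not given, so reads from overlapping genes cannot be told apart.

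Plin4, a perilipin of muscle and fat that coats nascent droplets, was at 274, 280 and 335 CPM in control, 267, 294 and 214 CPM in trained and 228, 297 and 266 CPM in tumour trained libraries. The tumour libraries were at 170, 362 and 710 CPM. Tumour 1 was the lowest and tumour 3 the highest of all 12 libraries, so the tumour group spanned all others. Tumour against control was 0.48 ± 0.38 on the log2 scale with all libraries (edgeR adjusted p = 0.362) and 1.27 with tumour 3 alone (adjusted p = 0.00692).

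Plin5, which ties droplets to mitochondria in oxidative muscle and restrains lipolysis, repeated that spread. It was at 152, 142 and 182 CPM in control, 149, 177 and 131 CPM in trained and 131, 127 and 117 CPM in tumour trained libraries, and at 62.9, 98.5 and 271 CPM in tumour libraries. Tumour 1 and 2 lay below all other libraries and tumour 3 above them. Tumour against control was -0.14 ± 0.40 on the log2 scale (edgeR adjusted p = 0.809), 0.78 with tumour 3 alone (adjusted p = 0.0570) and -1.02 without tumour 3 (adjusted p = 0.00236). Relative to the summed cardiomyocyte markers, Plin5 was 0.369%, 0.206% and 0.300% in tumour libraries 1 to 3, against 0.154% to 0.182% in control, 0.141% to 0.174% in trained and 0.128% to 0.147% in tumour trained libraries. On that scale all 3 tumour libraries were above the other 9, as they were for 19.9% of all genes. The cardiomyocyte sum itself was low in tumour 1 and 2.

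Pnpla2, which encodes the lipase that starts triglyceride breakdown, was at 602, 572 and 629 CPM in control, 518, 687 and 519 CPM in trained and 566, 659 and 484 CPM in tumour trained libraries. Tumour libraries were at 313, 569 and 1201 CPM, so tumour 1 was the lowest and tumour 3 the highest of the 12. Tumour against control was 0.21 ± 0.38 on the log2 scale with all libraries (edgeR adjusted p = 0.696) and 1.01 with tumour 3 alone (adjusted p = 0.0216). As a share of summed cardiomyocyte markers Pnpla2 was 1.83%, 1.19% and 1.33% in tumour libraries, against 0.619% to 0.630% in control, 0.522% to 0.677% in trained and 0.528% to 0.755% in tumour trained libraries. Here too all 3 tumour libraries were above the other 9, as for 19.9% of all genes.

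G0s2, the inhibitor of that lipase, was the only member that tumour 3 did not have above all 3 control libraries. It was at 34.8, 61.0 and 44.5 CPM in control, 31.9, 37.1 and 32.0 CPM in trained and 43.0, 39.9 and 39.1 CPM in tumour trained libraries. In the tumour group it was 10.9, 17.5 and 54.6 CPM. Tumour 1 and 2 were the lowest of the 12, and tumour 3 lay within the control range. Tumour against control was -0.76 ± 0.45 on the log2 scale (edgeR adjusted p = 0.234), 0.24 with tumour 3 alone (adjusted p = 0.802) and -1.77 without tumour 3 (adjusted p = 0.000279).

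Lipe, which encodes hormone-sensitive lipase, was at 56.3, 41.1 and 55.3 CPM in control and 66.4, 83.1 and 60.8 CPM in trained libraries, so all 3 trained libraries lay above control. Tumour libraries were at 35.2, 78.0 and 123 CPM and tumour trained libraries at 65.0, 74.2 and 58.2 CPM. The tumour trained libraries too were all above control, and tumour 1 was below it. Tumour against control was 0.63 ± 0.34 on the log2 scale (edgeR adjusted p = 0.204) and 1.29 with tumour 3 alone (adjusted p = 0.0116). Trained against control was 0.46 ± 0.34 and tumour trained against control 0.37 ± 0.34 (adjusted p = 1 and 0.900).

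**Figure D3:**
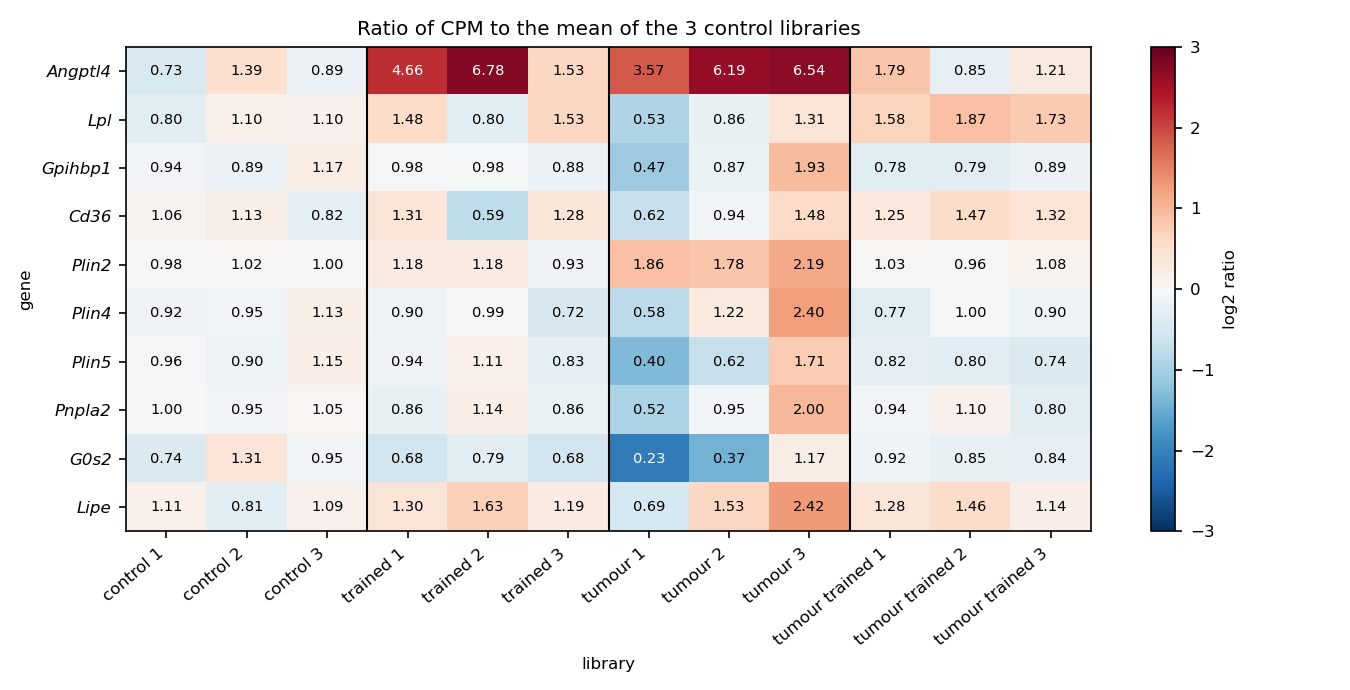
Ratio of the CPM of each gene (rows) to the mean of the 3 control libraries, in each of the 12 libraries (columns); colour is the log2 ratio and the printed number the ratio itself. In tumour 3 the ratios run from 1.17 (G0s2) to 6.54 (Angptl4), while in tumour 1 only Angptl4 (3.57) and Plin2 (1.86) exceed 1.

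In tumour against control 0 of the 8 members read as tests were called at an adjusted p under 0.05, where 5.33% of all 12778 genes tested were called higher and 1.46% lower. Angptl4 and Plin2 were called higher, but had been chosen from this contrast, so nothing is read from their calls. The median log2 change of the 10 members was 0.17, against 0.11 over all genes tested. That median includes Angptl4 and Plin2, so nothing is read from it. The other 8 members ran from -0.76 (G0s2) to 0.63 (Lipe). All 3 tumour libraries lay above all control libraries for Angptl4 and Plin2 and for 14.2% of all genes. Tumour 3 lay above all 3 control libraries for 9 of the 10 members, Angptl4 and Plin2 among them, and for 31.9% of all genes. It was the highest of the 12 libraries for 7 members (Cd36, Gpihbp1, Lipe, Plin2, Plin4, Plin5 and Pnpla2) and for 9.67% of all genes.

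With tumour 3 as the only tumour library, 4 of the 8 were called higher than control: Gpihbp1, Plin4, Pnpla2 and Lipe. In that fit 0.87% of 12995 genes were called higher, and the median log2 change was 0.99 over the 10 members and 0.02 over all genes. The median over the 10 members includes Angptl4 and Plin2, which were chosen from the tumour comparisons. The fit assumes that the lone tumour library varies as the other groups do, with 6 residual degrees of freedom. Tumour 1 was below the control mean for 8 members and tumour 2 for 6, with Angptl4 and Plin2 above it in both. Without tumour 3, 3 of the 8 were called lower than control (Plin5, Gpihbp1 and G0s2) and 0 higher. In that fit 22.8% of 13289 genes were called lower and 30.2% higher, so the count of lower members is not far from that of genes in general. Among the members other than Angptl4 and Plin2, all but Lipe thus had fitted tumour values of opposite sign with tumour 3 alone and without it. Lipe was higher than control in both, by a log2 value of 1.29 and 0.11. Whether the 2 fits differ was not tested for any member.

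Tumour trained against tumour asks how hearts of melanoma-injected mice differ with training. It called 0 of the 8 members, where 7.25% of genes were called lower and 1.79% higher. With tumour 3 as the only tumour library it called 4 of the 8 lower, and 0.593% of all genes. These were Gpihbp1 (log2 -1.26, edgeR adjusted p = 0.00370), Plin4 (-1.44, adjusted p = 0.00391), Plin5 (-1.13, adjusted p = 0.0114) and Pnpla2 (-1.09, adjusted p = 0.0187). The median of all 10 members, Angptl4 and Plin2 included, was -1.11, against a value near 0 over all genes. Tumour against control and tumour trained against tumour share the tumour libraries, so the same high values of tumour 3 enter both. Without tumour 3, Plin5, G0s2 and Lpl were instead called higher in tumour trained hearts, at 0.66, 1.55 and 1.34 (edgeR adjusted p = 0.0217, 0.000614 and 0.00717). In that fit 21.7% of all genes were called higher and 28.1% lower.

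**Figure D4:**
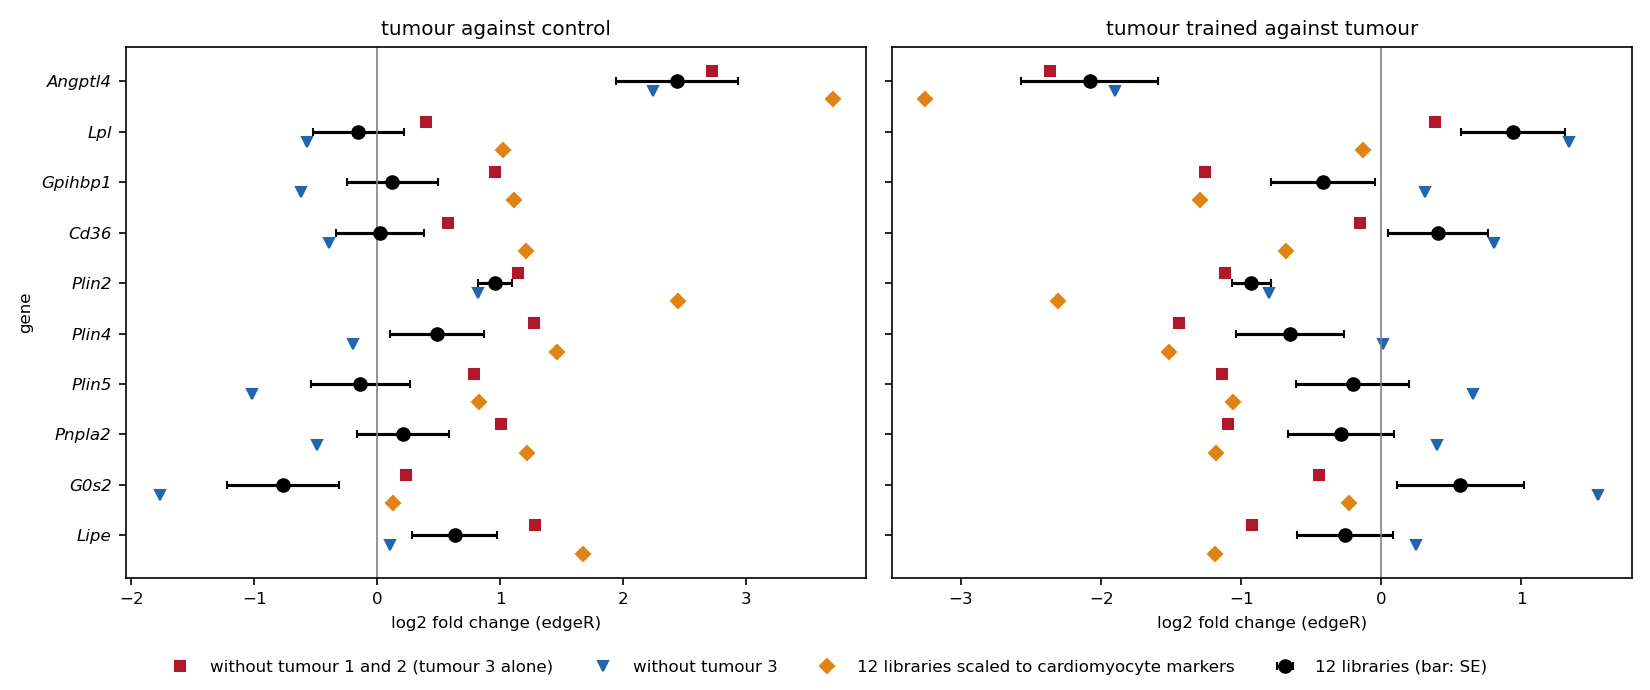
Fitted log2 fold change (x axis) of each gene (y axis) for tumour against control (left) and tumour trained against tumour (right): black points with SE bars use all 12 libraries, red squares use tumour 3 as the only tumour library, blue triangles leave out tumour 3, and orange diamonds scale all libraries to cardiomyocyte markers. Angptl4 and Plin2 stay on 1 side of 0 in each panel, while Plin5 is at -0.14 with all libraries, 0.78 with tumour 3 alone and -1.02 without it.

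In the fit of all 12 libraries, the comparisons without the untrained tumour group called no member. Trained against control called 0.0% of genes with edgeR, with 278 genes at an unadjusted p under 0.05 and 3 called by DESeq2. All 3 trained libraries were above all 3 control libraries for Angptl4 and Lipe, and for 4.04% of all genes. Tumour trained against trained also called 0.0% of genes (150 at an unadjusted p under 0.05, 3 called by DESeq2). Its values were -1.76 ± 0.48 for Angptl4 and between -0.28 and 0.44 on the log2 scale for the other members. Tumour trained against control called 0.0% of genes (826 at an unadjusted p under 0.05, 7 called by DESeq2). All 3 tumour trained libraries were above all 3 control libraries for Cd36, Lipe and Lpl, and for 21.9% of all genes.

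The interaction asks whether the tumour difference is the same in untrained and trained mice, and it called 0.0235% of genes and none of the members. Its log2 value was -4.19 ± 0.69 for Angptl4 and -1.06 ± 0.20 for Plin2. For G0s2 it was 1.04 ± 0.64 (edgeR adjusted p = 0.431) and for Lipe -0.72 ± 0.49 (adjusted p = 0.459). The remaining 6 members were between -0.45 and 0.60. With tumour 3 alone 1 of the 8 members read as tests was called, Gpihbp1 at -1.18 (edgeR adjusted p = 0.0413), where 0.2% of all genes were called in that direction.

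A further 69 genes of 5 role lists surround these members, of which 58 were tested. In tumour against control 3 of them rose and 0 fell, a share near the 5.33% of all genes called higher. Their median log2 change was -0.16 against 0.11 over all genes. The 3 were Hsd17b11, a droplet-associated dehydrogenase (log2 0.95 ± 0.19, edgeR adjusted p = 0.0390), Acsl3, a fatty acid activating enzyme of nascent droplets (2.45 ± 0.55, adjusted p = 0.0390), and Lipa, the lysosomal acid lipase (0.56 ± 0.13, adjusted p = 0.0426). Acsl3 was at 59.5, 24.2 and 7.20 CPM in tumour libraries 1 to 3 against 5.56 ± 0.67 in control (SD, n = 3), a level that followed the melanocyte markers. The part of melanoma RNA in that value was not tested. Hsd17b11 was highest in tumour 3, at 59.0, 53.1 and 85.7 CPM against 34.0 ± 2.57 in control. When tumour 3 was the only tumour library, Hsd17b11 (1.34, edgeR adjusted p = 0.00165) and Gpam, the first enzyme of triglyceride synthesis (0.72, adjusted p = 0.0137), were higher than control.

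By role, the lists of lipoprotein lipase partners and lipoprotein uptake (10 tested of 16), triglyceride synthesis (13 of 15) and fatty acid uptake and activation (12 of 13) had 0 genes called in tumour against control. The list of droplet coat and formation genes had 2 of 13 higher and the list of lipolysis partners 1 of 10. Tumour trained against tumour called 5 of the 58 lower and 0 higher, near the 7.25% of all genes called lower. Among these were the droplet-associated Aup1, Faf2 and Acsl3, and Lipa, and Lipa fell by 0.55 ± 0.13 on the log2 scale (edgeR adjusted p = 0.0359). With tumour 3 alone the genes called lower were Hsd17b11 (-1.02, adjusted p = 0.0115) and Plin3, a perilipin of many tissues (-0.75, adjusted p = 0.0321). The other 4 comparisons called none of the 58.

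Known targets of the PPAR receptors, which sense fatty acids and drive their oxidation, showed the same dependence on the library. A list of 23 such genes outside the members was followed. Their median log2 ratio to control was -1.29 in tumour 1, -0.44 in tumour 2 and 0.38 in tumour 3. In tumour 3, 22 of the 23 were above all control libraries, as were 31.9% of all genes tested. In tumour 1 and in tumour 2, 5 of the 23 were. In trained libraries the medians were -0.16 to 0.01 and in tumour trained libraries -0.14 to 0.10. In the fit with tumour 3 alone, the median log2 change of the 23 was 0.39, against 0.02 over all genes. Pdk4, which shuts pyruvate out of oxidation, was at 4002 CPM in tumour 3 against 706 ± 305 in control (SD, n = 3; log2 2.51, edgeR adjusted p = 0.0367). Ehhadh, a peroxisomal oxidation enzyme, was at 90.4 against 21.8 ± 5.45 CPM (2.07, adjusted p = 0.00222), and Acot1, a thioesterase, at 104 against 24.0 ± 2.72 CPM (2.13, adjusted p = 0.000701). Acot1 and Acot2 are near-identical copies, so their split is uncertain. Ucp3 (1.76) and Cpt1a (0.83) were also higher in that fit. The median of the 23 in tumour trained against tumour was then -0.42, against a value near 0 over all genes.

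**Figure D5:**
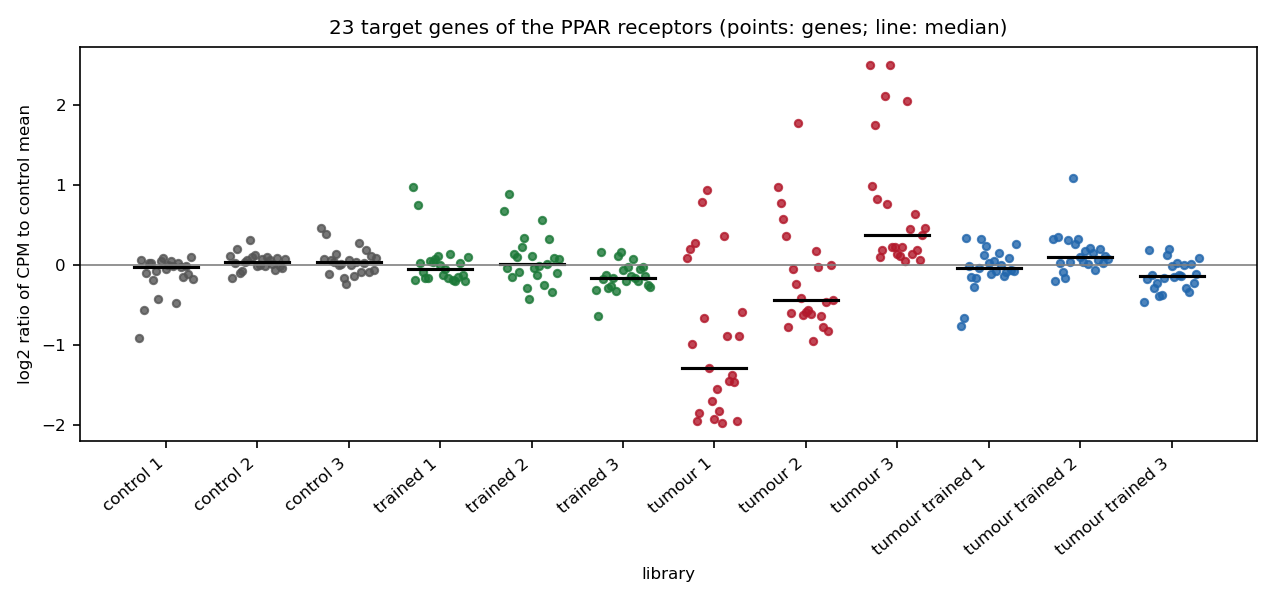
Log2 ratio of CPM to the control mean (y axis) for 23 PPAR target genes in each of the 12 libraries (x axis); points are genes, lines their median. The median is -1.29 in tumour 1, -0.44 in tumour 2 and 0.38 in tumour 3, and lies between -0.16 and 0.10 in the other libraries.

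Among 15 regulators of the members, which include the PPAR, RXR, PGC-1 and FoxO genes, tumour against control called none. Tumour trained against tumour called Nr3c1, the glucocorticoid receptor gene, higher (1.08 ± 0.22, edgeR adjusted p = 0.0357), and none lower. Without tumour 1 and 2, Foxo3 was higher than control (1.10, adjusted p = 0.00242) and higher than in tumour trained hearts (-0.85 for tumour trained against tumour, adjusted p = 0.0149). Of 11 glucocorticoid targets, tumour against control called 2 higher and 1 lower, where 5.33% of all genes were called higher and 1.46% lower. Mt2, a metallothionein, was at 249, 218 and 242 CPM in tumour libraries against 15.5 ± 0.88 in control (SD, n = 3), and Fkbp5, a receptor cochaperone, at 85.0, 70.2 and 89.5 against 17.6 ± 0.73 CPM. Errfi1 fell by 1.69 ± 0.45 on the log2 scale (edgeR adjusted p = 0.0490). It was at 44.7, 224 and 144 CPM in control libraries 1 to 3, so control 1 lay within the tumour range of 32.2 to 51.2 CPM, and its trained and tumour trained means were 38.8 and 40.4 CPM. Mt2 and Fkbp5 did not follow the melanocyte markers, and both fell in tumour trained against tumour, Mt2 by a log2 value of -3.21 ± 0.18 and Fkbp5 by -2.38 ± 0.19.

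Low oxygen is a known inducer of Angptl4 in other tissues. Its targets moved in both directions in tumour against control, which called 5.33% of all genes higher and 1.46% lower. Of 14 tested, tumour against control called Slc2a1 (1.32 ± 0.27) and Pfkfb3 (1.44 ± 0.31) higher, both of them glucose metabolism genes, and Vegfa (-1.23 ± 0.22) and Hk2 lower, with edgeR adjusted p = 0.0390 for the first 3. Slc2a1 was at 87.7, 63.8 and 34.8 CPM in tumour libraries 1 to 3 against 25.0 ± 3.72 in control (SD, n = 3), in the order of the melanocyte markers. In the fit with tumour 3 alone the one hypoxia target called was Bnip3, a mitophagy receptor gene, which was higher than control (1.40, adjusted p = 0.00161).

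The genes whose pattern over the 12 libraries was most like that of the 2 members chosen from earlier results were ranked by Pearson's r of log2 CPM among 11705 genes, as a description. For Angptl4 they were Ctns (0.90), Cnnm3 (0.85), Shpk (0.84), Natd1 (0.83) and Zbtb49 (0.81). Ctns, the lysosomal cystine transporter gene, was at 12.5 to 14.8 CPM in control and 15.2 to 16.3 CPM in tumour trained libraries, and at 14.8 to 19.2 and 18.1 to 19.7 CPM in trained and tumour libraries, a far smaller range than that of Angptl4. For Plin2 they were Mt1 (0.96), Hmox1 (0.95), Fkbp5 (0.93), Mt2 (0.93) and Patz1 (0.92). Hmox1, the haem-degrading enzyme, was at 12.7 to 15.6 CPM in control, 11.2 to 12.0 in trained, 116 to 231 in tumour and 10.5 to 12.7 CPM in tumour trained libraries. The lists have no gene in common: the leading genes for Plin2 were high in all 3 tumour libraries and not in trained ones, and Angptl4 was also high in trained 1 and 2.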

How the data were processed

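The deposited table holds raw estimated counts per gene for all 12 heart libraries. HISAT2 2.2.1 and featureCounts are named by the submitters' processing notes, with GRCm39 as well as mm10 as builds. Which build and annotation the table rests on, and the strand setting, is not stated. Between 7.09% and 8.92% of a library's values were not whole. Per the labels' protocols RNA came from livers, whereas the tissue label says heart.

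Counts were rounded and scaled with TMM, and genes were tested with edgeR 4.0.16 (R 4.3.3) in 1 quasi-likelihood fit of all groups (8 residual degrees of freedom). After edgeR's own filter for low counts 12778 of 17397 genes stayed in. A gene was called at a Benjamini-Hochberg adjusted p under 0.05 over all genes tested. In simulated counts, the fit recovered 35% of genes given a 2-fold and 83% given a 4-fold change in tumour against control. There each gene had the same spread in every group, estimated over all 12 libraries. The real tumour libraries differed more among themselves than those of other groups, and recovery at that wider spread was not tested. Exon lengths and transcript GC were taken from GENCODE M21 (GRCm38), and GC was at hand for 98.1% of the genes tested.

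The members and gene lists were chosen with earlier results of these data known. Named were all members, up to 3 called genes of each list and comparison by p, and 5 genes most like Angptl4 and Plin2. Exceptions, named after their values were seen, were Hk2 and the further PPAR targets called with tumour 3 alone. Some genes that met the rule are left out of the text. Replicates differed by a chi-square per gene of 3.67 to 370, and none was merged. The floor of 3 counts covers counting error only. Alternatives were DESeq2 1.42.0, its size factors, library size alone, scaling to cardiomyocyte markers, no or a stricter filter (5 CPM in 3 libraries), robust dispersion, a replicate block, only the groups compared, and leaving out libraries. A GC correction and a fit without tumour 1, tumour 2 and trained 2 together were added after seeing the data.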

Additional observations from a re-analysis of the deposited data

Results flagged for a closer look

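For both genes below, every tumour library of untrained mice lay above the control mean while every tumour trained library lay below the trained mean. The log2 interaction of tumour and training was -4.19 for Angptl4 and -1.06 for Plin2. Both genes were chosen from earlier results of these libraries, so these values carry no test. In trained mice the Plin2 difference was small (-0.10), and trained 3 (56.2 CPM) lay below all 3 tumour trained libraries (58.4 to 65.3 CPM).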

How the results depend on the processing

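Over 24 alternatives, 1430 values of single genes were recomputed: 1246 kept direction and call, 73 changed sign without a call on either side, 49 lost a call, 57 gained one and 5 reversed. Angptl4 and Plin2 were higher in tumour against control and lower in tumour trained against tumour in 24 of 24 alternatives. Lipe was also higher in tumour against control in 24 of 24, by 0.11 to 1.67. In tumour trained against tumour it was lower in 23 of 24. Tumour against control reversed for Lpl (1.03) and Plin5 (0.82) when scaled to cardiomyocyte markers, for Plin5 (0.78) without tumour 1, tumour 2 and trained 2 together, and for Gpihbp1 (-0.62) without tumour 3, with values up to 0.48 when any other single library was left out. Plin5 in tumour trained against tumour reversed to 0.66 without tumour 3, with values down to -0.57 when any other single library was left out. Scaling to cardiomyocyte markers moved the median of all genes in tumour against control from 0.11 to 1.63, above the members' median of 1.21. Angptl4 (3.71), Plin2 (2.45) and Lipe (1.67) were above the median of all genes on that scale.

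Counts of members include Angptl4 and Plin2, which were chosen from these contrasts. Some alternatives called a large part of all genes, so a high count of members there is not particular to them. Scaling to cardiomyocyte markers called 9627 of 12778 genes in tumour against control and 7840 in tumour trained against tumour. Without tumour 3, tumour against control called 30.2% of genes higher and 22.8% lower. Tumour trained against tumour then called 21.7% higher and 28.1% lower. In tumour against control 2 members were called: 9 when scaled to cardiomyocyte markers, 1 at 5 CPM or more in 3 libraries, 0 with the replicate block, 0 with only the groups compared, 6 without tumour 1 and 2, 8 with trained 2 also left out, and 0 to 5 without 1 library (2 without tumour 1, 5 without tumour 3, 0 without any of the others). In tumour trained against tumour 2 were called: 7 scaled to cardiomyocyte markers, 3 with DESeq2 (Lpl in addition), 0 with the block, 0 with only those groups, 5 without tumour 1 and 2, 7 with trained 2 also left out, and 0 to 5 without 1 library (5 without tumour 3, 1 without tumour 1, 2 without trained 2, 0 without any of the others). Other comparisons called 0 members. Leaving out tumour 1, tumour 2 and trained 2 together called 2 for trained against control, 3 for tumour trained against control and 7 for the interaction. Only the groups compared gave 3 for tumour trained against control, where 2493 of 12778 genes were called. The interaction gave 2 with DESeq2, 3 without tumour 1 and 2, and 0 to 3 without 1 library (3 without tumour 3, 1 without trained 3).

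Other lipid genes called in tumour against control numbered 3: 9 with DESeq2, 7 with library size alone, 42 scaled to cardiomyocyte markers, 1 at 5 CPM or more, 0 with the replicate block, 0 with only those groups, 10 without tumour 1, tumour 2 and trained 2, and 0 to 41 without 1 library (41 without tumour 3). In tumour trained against tumour they numbered 5, and under the same alternatives 10, 8, 38, 3, 0, 0 and 10, with 2 without tumour 1 and 2 and 0 to 35 without 1 library (35 without tumour 3). Without tumour 1, tumour 2 and trained 2 they numbered 7 for trained against control, 16 for tumour trained against control and 4 for the interaction. Only the groups compared gave 11 for tumour trained against control, beside 2493 of 12778 genes. For the interaction they numbered 1 without tumour 1 and 2, and 0 to 27 without 1 library. The shares of all genes given above for cardiomyocyte scaling and without tumour 3 apply beside these counts too. The cause of these changes was not tested.

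Over all genes, tumour against control called 868 genes: 2272 with DESeq2, 16 with the block, 182 without tumour 1 and 2, and 4 to 7043 without 1 library. Tumour trained against tumour called 1156: 2378, 18 and 93 under the same first 3, and 3 to 6619. Only the groups compared called 3 genes in tumour against control, 2 in tumour trained against tumour and 2493 in tumour trained against control. Same-numbered libraries correlated at -0.27 to 0.24 in their deviations from group means, with 3 of 18 pairs over 0.1. Of the 12 libraries, 3 correlated best with their own number, so the numbers were not taken as pairs. Every member was above the floor of 3 counts in every library, so depth limits none of them.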
